A study of Homo sapiens with 38 samples.

Results

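The early response to GSK-J4, an inhibitor of the KDM6 histone demethylases, was measured by RNA sequencing of BE2C cells 24 h after its addition at 2.5 µM and of BE2C cells at 0 h. BE2C is an established human neuroblastoma line with MYCN amplification. Of the 38 deposited samples of the series, 8 belong to this comparison, 4 at 0 h and 4 at 24 h. The labels give each a replicate number and a file number, and the 2 files that share a replicate number were summed, so each time was represented by 2 libraries; 2 further libraries from 48 h entered the fit and are quoted for reference. The question addressed was which transcripts had moved by 24 h and in which direction. The labels name no genetic modification of the cells at any of the 3 times. The labels name no vehicle control kept for 24 h, so the effects of the compound and of time in culture cannot be told apart. The extraction text of the labels speaks of xenograft tissue, whereas the cell line and treatment fields describe cultured cells, and nothing states whether the replicates were separate cultures; p-values then measure only the spread between these libraries, which may be technical.

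As background, KDM6B (JMJD3) and KDM6A (UTX) belong to the JmjC family of dioxygenases, which use iron, oxygen and 2-oxoglutarate to remove methyl groups, here from lysine 27 of histone H3. Related dioxygenases, the EGLN prolyl hydroxylases, mark HIF transcription factors for destruction when oxygen is present, and HIF in turn raises glycolytic and angiogenic genes. ATF4 is the effector of the integrated stress response, in which phosphorylated eIF2α slows general translation while ATF4 raises amino acid synthesis and transport genes, and MTF1 raises metallothioneins when free zinc is high. In MYCN-amplified neuroblastoma, MYCN, E2F factors and a set of adrenergic transcription factors maintain growth and cell identity.

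The 4 libraries held 36186567 to 47401124 counts on genes, and 11.3% to 11.8% of read pairs lay on no gene. Values are counts scaled to library size (CPM) with TMM factors, and folds are edgeR log2 estimates for 24 h over 0 h with their standard error (SE). Rose, fell, higher and lower denote an edgeR adjusted p under 0.05 over all 17734 genes tested, and a value written as x ± y is a log2 fold change with its SE. Because 3 counts correspond to at most 0.0844 CPM, a gene with no more than 3 counts in each library of a time is described as at the floor. The common coefficient of variation between replicates was 0.0219. Of the tested genes 55.3% passed, 27.3% higher and 28.0% lower, so a share of a gene group near these values is no result about the group. The libraries expressed the markers of adrenergic neuroblastoma. The summed level of 7 adrenergic markers was 3212 to 3261 CPM at 0 h and 3421 to 3430 CPM at 24 h. The immune markers PTPRC, CD3E, CD68 and LYZ, the Schwann cell factor SOX10, the endothelial receptor TEK and the epithelial genes KRT5, KRT14, KRT20 and CDH1 stayed at the floor in all 4 libraries. The sum of 7 fibroblast markers was 105 to 107 CPM at 0 h and 33.6 to 35.6 CPM at 24 h, of which PDGFRB, also a receptor of neural crest cells, made up 89.1 and 91.3 CPM at 0 h and 28.9 and 26.8 CPM at 24 h. In bulk RNA, fewer cells of a type and less RNA per cell cannot be told apart.

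Calls were split nearly evenly by direction, but the large changes were mostly increases. An absolute log2 fold change above 1 was reached by 1173 genes that rose and 541 that fell, and one above 3 by 227 and 11. The median called increase was 0.46 and the median called decrease -0.36 on the log2 scale. Among genes at a mean of 100 CPM or more, 28.1% rose and 53.8% fell. Among those at 10 to 100 CPM, 31.4% rose and 38.4% fell, and among those under 1 CPM, 17.7% and 6.74%. The share falling thus depended on level, and 28.0% is a low reference for groups of highly expressed genes. Protein-coding genes passed more often than long non-coding RNAs. Of 13193 protein-coding genes, 30.6% rose and 34.6% fell, against 23.4% and 13.9% of 808 long non-coding RNAs. The annotated span of protein-coding genes that rose had a median of 41057 bp, against 30770 bp for those that fell and 33898 bp for those not called.

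**Figure D1:**
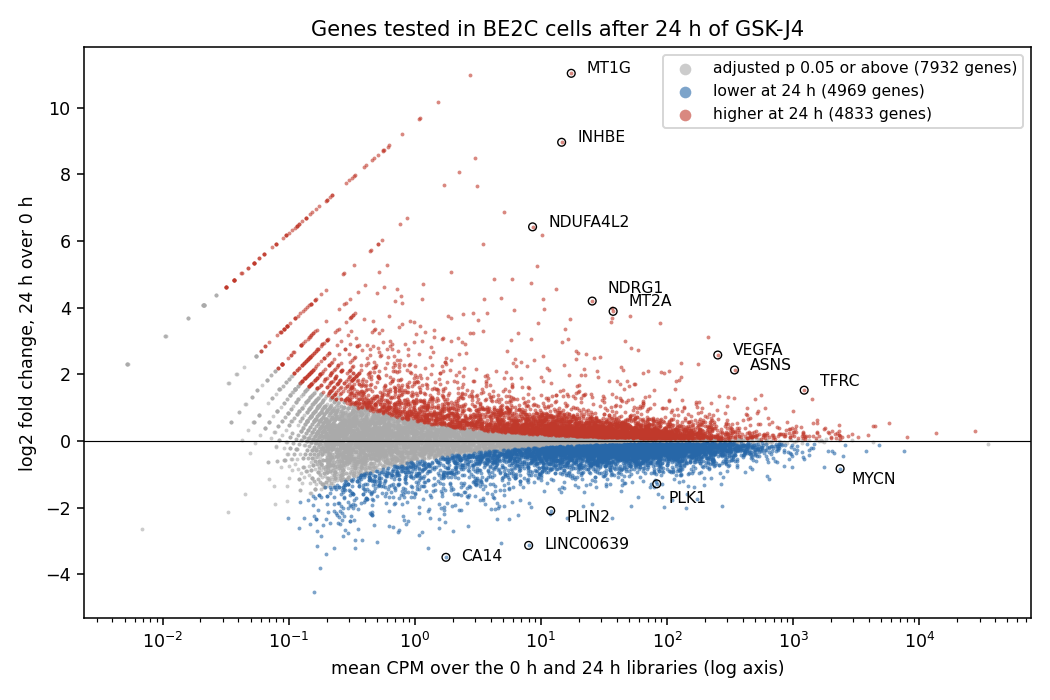
Each point is a gene tested at 24 h against 0 h of GSK-J4. The horizontal axis is the mean CPM over the 4 libraries (log axis) and the vertical axis the edgeR log2 fold change. Red points rose (4833 genes), blue points fell (4969) and grey points had an adjusted p of 0.05 or above. The largest changes point upwards, and the oblique lines at the left are genes with 0 or a few counts at 0 h, whose fitted fold depends on the prior count.

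The strongest increases were of genes scarcely detected at 0 h. INHBE, which encodes the inhibin beta E chain and is a known target of ATF4, was at 0.0276 and 0.0844 CPM at 0 h and 28.98 and 29.3 CPM at 24 h, or 4 counts against 2751, a 523-fold ratio with an exact 95% counting interval of 204 to 1919. MT1G, a metallothionein, was at 0 and 0.0281 CPM at 0 h and 30.6 and 38.9 CPM at 24 h, or 1 count against 3282, for which that interval runs from 447 to 98538. Such intervals cover counting error only. NDUFA4L2, a HIF target of the mitochondrial respiratory chain, was at 0.166 and 0.225 CPM at 0 h and 16.6 and 17.3 CPM at 24 h (log2 fold change 6.42 ± 0.16, adjusted p = 2.0e-33). That the times did not overlap was a condition for naming the genes of this and the next paragraph. Counts were 0 in both 0 h libraries for NXPH4, a neurexophilin, and it reached 5.48 and 5.38 CPM at 24 h, at least 64.3-fold higher than the floor of 3 counts per library. TNFRSF9, the co-stimulatory receptor 4-1BB, likewise went from 0 counts to 2.89 and 3.28 CPM, at least 36.5-fold. FAM129A, an ATF4 target also called NIBAN1, had 1 count over both 0 h libraries and was at 6.01 and 6.001 CPM at 24 h. CSTA, a cysteine protease inhibitor, had 1 count at 0 h and was at 4.55 and 4.34 CPM at 24 h. KLHDC7B, a kelch domain protein, also had 1 count at 0 h and was at 2.89 and 3.87 CPM at 24 h. The unnamed transcript RP4-756G23.5 was at 0.0828 and 0.0844 CPM at 0 h and 10.3 and 9.98 CPM at 24 h. In all, 288 genes that rose had been at the floor at 0 h, and 29 of them reached 1 CPM at 24 h. Such genes entered the test through their 24 h or 48 h libraries, so their count is a description only. Some of the 288 had only 6 or 7 counts over both 24 h libraries and so were still near the floor. At 24 h 14 genes that fell were at the floor, and 0 of them had been at 1 CPM or more.

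Decreases were shallower. CA14, a membrane carbonic anhydrase, was at 3.23 and 3.26 CPM at 0 h and 0.379 and 0.192 CPM at 24 h, an 11.3-fold fall (log2 fold change -3.49 ± 0.28, adjusted p = 8.7e-15). LINC00639, a long non-coding RNA, was at 14.1 and 14.6 CPM at 0 h and 1.69 and 1.57 CPM at 24 h (log2 fold change -3.14 ± 0.12, adjusted p = 1.9e-26). GABRA4, a subunit of the GABA-A receptor, was at 8.004 and 9.34 CPM at 0 h and 1.07 and 1.0002 CPM at 24 h (log2 fold change -3.06 ± 0.16, adjusted p = 1.6e-21). The others of the 12 largest decreases among genes with a mean of at least 1 CPM and no overlap between times were the non-coding AC010745.2 (log2 fold change -3.22), the thiamine transporter SLC19A3 (-2.84), the cartilage collagen COL9A2 (-2.75), the cholesterol exporter ABCA1 (-2.71), the aggrecan protease ADAMTS4 (-2.62), the cyclin-dependent kinase CDK15 (-2.56), the sphingosine kinase SPHK1 (-2.43), HPDL (-2.36) and HTATIP2 (-2.35).

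Regulators of the integrated stress response rose nearly as a whole. Of 19 regulators and effectors tested, 18 rose and 0 fell, against 27.3% of all genes rising. The 0 held at an unadjusted p under 0.05, with DESeq2 and with limma-voom. The median log2 fold change of the 19 was 2.22, against 0.014 over all tested genes. Setting the genes with 0 counts at 0 h to their lower bound left that median unchanged. NUPR1, FGF21 and GDF15, with 2 or fewer counts over both 0 h libraries, were tested through their 24 h libraries. Requiring at least 10 counts in every library left 16 genes, of which 15 rose, with a median of 1.96. ATF4 itself, whose protein is controlled mainly through translation, was at 520.0 and 544 CPM at 0 h and 756 and 762 CPM at 24 h, a 1.43-fold rise (log2 fold change 0.51 ± 0.028, adjusted p = 1.4e-20). Known targets of ATF4 had larger folds. DDIT3 (CHOP), a pro-apoptotic partner of ATF4, was at 14.5 and 15.8 CPM at 0 h and 71.2 and 70.2 CPM at 24 h (log2 fold change 2.22 ± 0.052, adjusted p = 7.8e-35). CHAC1, which degrades glutathione, was at 5.66 and 5.54 CPM at 0 h and 65.8 and 67.3 CPM at 24 h, an 11.9-fold rise (log2 fold change 3.57 ± 0.063, adjusted p = 1.0e-39). TRIB3, a pseudokinase that restrains AKT and ATF4, was at 7.04 and 7.06 CPM at 0 h and 95.4 and 92.96 CPM at 24 h (log2 fold change 3.74 ± 0.057, adjusted p = 3.4e-42). The 24 h libraries of all 4 genes lay above the 0 h libraries without overlap. ATF5, a related bZIP factor, was at 4.42 and 4.36 CPM at 0 h and 66.4 and 72.5 CPM at 24 h (log2 fold change 3.98 ± 0.07, adjusted p = 8.7e-40). DDIT4 (REDD1) and SESN2, inhibitors of mTORC1, rose 8.70-fold and 6.68-fold. ATF3 rose by 1.91 ± 0.059 on the log2 scale, PPP1R15A (GADD34), the phosphatase subunit that reverses eIF2α phosphorylation, by 1.79 ± 0.055, CEBPB by 1.35 ± 0.073 and CEBPG by 0.96 ± 0.033.

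Secreted stress proteins and other effectors rose as well. GDF15, a stress cytokine, had 2 counts over both 0 h libraries and was at 6.36 and 5.98 CPM at 24 h. FGF21, a metabolic hormone, had 0 counts at 0 h and 1.12 and 1.11 CPM at 24 h, at least 13.2-fold higher. NUPR1, a stress-induced chromatin protein, had 0 counts at 0 h and 2.68 and 1.66 CPM at 24 h, at least 25.7-fold higher. STC2 was at 60.2 and 57.98 CPM at 0 h and 287 and 295 CPM at 24 h, and the lipoprotein receptor VLDLR at 8.06 and 8.98 CPM at 0 h and 32.6 and 34.2 CPM at 24 h. Changes of the eIF2α kinases were small. EIF2AK3 (PERK), which senses ER stress, was at 27.5 and 26.1 CPM at 0 h and 27.5 and 27.2 CPM at 24 h (adjusted p = 0.679), while EIF2AK4 (GCN2), which senses uncharged tRNA, rose by 0.15 ± 0.04 on the log2 scale.

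Genes of amino acid supply rose beside these regulators. In serine, one-carbon, asparagine and proline synthesis, 12 of 17 genes rose and 2 fell, with a median of 0.90. ASNS, the asparagine synthetase and a classical ATF4 target, was at 127 and 128 CPM at 0 h and 554 and 561 CPM at 24 h, a 4.37-fold rise (log2 fold change 2.13 ± 0.03, adjusted p = 1.7e-43). The serine pathway rose along its length. PHGDH was at 362 and 368 CPM at 0 h and 670.5 and 691 CPM at 24 h, PSAT1 at 148 and 144 CPM at 0 h and 375 and 364 CPM at 24 h and PSPH at 39.6 and 41.8 CPM at 0 h and 104 and 104 CPM at 24 h. Mitochondrial one-carbon enzymes followed, with MTHFD2 at 317 and 301 CPM at 0 h and 796 and 806 CPM at 24 h, SHMT2 rising by 1.28 ± 0.029 and ALDH1L2 by 1.31 ± 0.044 on the log2 scale. Of the cytosolic counterparts, SHMT1 was at 19.9 and 23.4 CPM at 0 h and 23.2 and 21.98 CPM at 24 h (adjusted p = 0.454), and MTHFD1 fell (-0.44 ± 0.03). GPT2, the mitochondrial alanine transaminase, rose 3.79-fold. Of the proline enzymes, ALDH18A1 fell (-0.54 ± 0.032) and PYCR1 had an adjusted p of 0.495.

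Of 11 amino acid transporters, 10 rose and 0 fell (median 1.04), and the 0 held at an unadjusted p under 0.05, with DESeq2 and with limma-voom. SLC7A11, the cystine importer xCT, was at 14.99 and 12.9 CPM at 0 h and 159.8 and 165 CPM at 24 h, an 11.6-fold rise (log2 fold change 3.54 ± 0.048, adjusted p = 5.4e-44). SLC7A3, an arginine and lysine carrier, was at 0.110 and 0.450 CPM at 0 h and 8.16 and 8.19 CPM at 24 h (log2 fold change 4.86 ± 0.22, adjusted p = 1.7e-23). SLC1A4 and SLC6A9, carriers of neutral amino acids and glycine, rose 5.77-fold and 5.07-fold. SLC7A5 and SLC3A2, which together form the leucine exchanger LAT1, rose 2.41-fold and 2.06-fold. The exception, SLC43A1, was at 5.82 and 6.22 CPM at 0 h and 6.11 and 5.36 CPM at 24 h. Cytosolic aminoacyl-tRNA synthetases, which charge tRNAs, were mixed, with 12 of 20 higher and 6 lower. The highest were WARS (1.18 ± 0.032), CARS (0.996 ± 0.037) and GARS (0.81 ± 0.029), and the lowest VARS (-0.62 ± 0.03). Among 17 mitochondrial synthetases 2 rose and 9 fell (median -0.17).

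Promoter sequences of these genes are shown because the C/EBP-ATF response element, searched as TGATGNAAN on both strands, is the site through which ATF4 acts. Sequences are from RefSeq (GRCh38.p14), 5′ to 3′ on the strand of the gene and upstream of its start, with motif matches in capitals. Of the tested symbols, 11520 matched 11436 different promoters of 250 bases before to 50 after the start, the first start listed being used. The element was in 3 of 18 promoters of the regulators, 3 of 12 of amino acid synthesis, 3 of 9 of the transporters and 6 of 13 of the cytosolic synthetases, against 1.79% of promoters of tested genes. A match is a description of the letters and no evidence of binding.
ASNS, chr7:97872427-97872486, minus strand: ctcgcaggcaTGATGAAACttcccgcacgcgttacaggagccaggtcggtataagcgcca
CHAC1, chr15:40953251-40953310, plus strand: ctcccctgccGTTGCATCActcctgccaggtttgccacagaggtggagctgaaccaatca
ATF3, chr1:212565206-212565265, plus strand: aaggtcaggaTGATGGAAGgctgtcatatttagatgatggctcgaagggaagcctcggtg

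The unfolded protein response, which can also activate ATF4 through PERK, showed no uniform direction. Of 20 ER chaperones and effectors, 9 rose and 10 fell (median -0.12). Signalling and degradation components rose: the sensor ERN1 (IRE1) from 3.42 and 2.70 CPM to 16.8 and 18.7 CPM, XBP1, its transcription factor substrate, from 141 and 137 CPM to 301 and 306 CPM, and the degradation genes HERPUD1 (1.21 ± 0.034), EDEM1 (1.30 ± 0.061) and SEL1L (0.97 ± 0.036). Several chaperones fell. HSPA5 (BiP), the main ER chaperone, was at 302 and 305 CPM at 0 h and 255 and 247 CPM at 24 h (log2 fold change -0.27 ± 0.029, adjusted p = 4.8e-11). CALR, HSP90B1, PDIA4, DNAJB11 and SDF2L1 also fell, SDF2L1 the most with -0.98 ± 0.081. Other chaperones and co-chaperones rose, DNAJB9 by 0.55 ± 0.057, DNAJC3 by 0.18 ± 0.035 and HYOU1 by 0.11 ± 0.028. CANX had an adjusted p of 0.977. Cytosolic heat shock genes fell in 10 of 14 cases and rose in 2, or in 1 with DESeq2 and without 0 h replicate 2 or 24 h replicate 1 (median -0.30). HSPA1A, the stress-inducible HSP70, was at 10.6 and 11.7 CPM at 0 h and 8.35 and 8.49 CPM at 24 h and HSPB1 (HSP27) at 26.4 and 26.5 CPM at 0 h and 10.6 and 10.7 CPM at 24 h.

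Metallothioneins, small cysteine-rich proteins that bind zinc and copper, had the highest median log2 fold change of the gene groups examined. All 7 tested genes of the cluster at chr16:56642496-56718108 (GRCh37) rose. MT2A was at 4.61 and 4.84 CPM at 0 h and 61.9 and 78.1 CPM at 24 h, a 14.8-fold rise (log2 fold change 3.89 ± 0.087, adjusted p = 1.3e-35). MT1X was at 1.30 and 0.732 CPM at 0 h and 19.5 and 19.9 CPM at 24 h (log2 fold change 4.27 ± 0.13, adjusted p = 1.0e-30). MT1E was at 0.166 and 0.0563 CPM at 0 h and 6.18 and 7.43 CPM at 24 h (log2 fold change 5.90 ± 0.28, adjusted p = 3.4e-23). The 0 h and 24 h libraries were far apart in each case. MT1F rose from 0.552 and 0.225 CPM to 10.3 and 12.4 CPM. MT1M had 0 counts at 0 h and 2.07 and 2.32 CPM at 24 h (at least 25.97-fold), and MT1H 0 counts and 1.18 and 0.851 CPM (at least 12.03-fold). Because these paralogs are nearly identical in sequence, the division of reads among them is uncertain. MT1A and MT3 did not pass the filter on low counts.

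The zinc exporters rose with them. SLC30A1 (ZNT1), the plasma membrane exporter driven by MTF1, was at 38.5 and 34.6 CPM at 0 h and 154 and 148 CPM at 24 h, a 4.13-fold rise (log2 fold change 2.05 ± 0.04, adjusted p = 6.4e-38). SLC30A10, a manganese and zinc exporter, was at 0.0276 and 0.0563 CPM at 0 h and 0.358 and 0.489 CPM at 24 h. SLC39A10, a zinc importer, fell (-0.31 ± 0.033) on the log2 scale, and MTF1 itself was at 9.27 and 9.65 CPM at 0 h and 8.75 and 9.73 CPM at 24 h (adjusted p = 0.769). Over the 11 tested genes of the group the median was 4.27, or 3.89 with the 2 genes of 0 counts at 0 h set to their bound. MT1G, MT1H, MT1M and SLC30A10 had 3 or fewer counts over both 0 h libraries and were tested through their 24 h libraries. Requiring at least 10 counts in every library left 5 genes, of which 3 rose, with a median of 2.07. The metal response element, searched as TGCACNC or TGCGCNC on both strands, was in 4 of the 7 promoters of the group that could be matched and in 38.6% of promoters of tested genes, so its presence alone is common. The promoters of MT2A and MT1X are shown because they hold 4 copies each in the stretch given; SLC30A1 holds 1.
MT2A, chr16:56608334-56608463, plus strand: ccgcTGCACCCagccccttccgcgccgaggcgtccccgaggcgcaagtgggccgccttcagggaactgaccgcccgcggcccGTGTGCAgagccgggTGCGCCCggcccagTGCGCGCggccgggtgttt
MT1X, chr16:56682310-56682429, plus strand: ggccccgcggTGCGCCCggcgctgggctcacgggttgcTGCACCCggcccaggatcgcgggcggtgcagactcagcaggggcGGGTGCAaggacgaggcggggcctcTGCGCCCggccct
SLC30A1, chr1:211579162-211579221, minus strand: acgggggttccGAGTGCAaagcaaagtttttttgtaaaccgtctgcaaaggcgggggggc

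**Figure D2:**
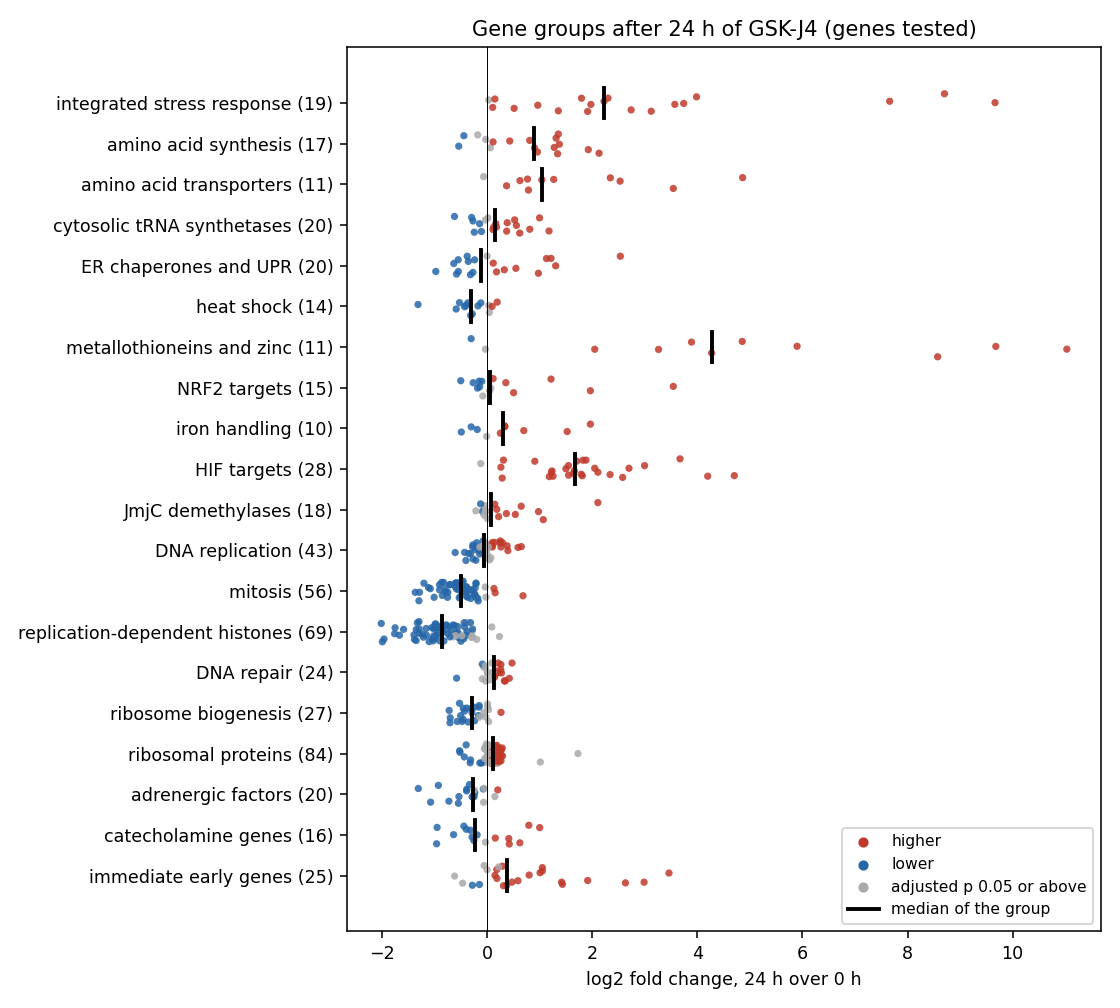
Each row is a gene group with the number of its genes tested, and each point a gene at its edgeR log2 fold change for 24 h over 0 h (horizontal axis). Red points rose, blue fell and grey had an adjusted p of 0.05 or above; the black bar is the median of the group, 4.27 for metallothioneins and zinc, 2.22 for the integrated stress response and -0.86 for histones. The points of NUPR1, FGF21, MT1M and MT1H rest on 0 counts at 0 h, and their position depends on the prior count.

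Genes regulated by HIF, the hypoxia-inducible factor, rose almost without exception. Of 28 targets tested 27 rose and 0 fell (1 at an unadjusted p under 0.05 and without 0 h replicate 1, 0 with DESeq2 and with limma-voom), and the median on the log2 scale was 1.68. VEGFA, the angiogenic growth factor, was at 73.7 and 71.1 CPM at 0 h and 420.2 and 444 CPM at 24 h, a 5.97-fold rise (log2 fold change 2.58 ± 0.034, adjusted p = 1.2e-44). NDRG1, a hypoxia marker and differentiation gene, was at 2.18 and 3.10 CPM at 0 h and 44.2 and 52.5 CPM at 24 h (log2 fold change 4.20 ± 0.097, adjusted p = 3.8e-35). PFKFB4, which drives glycolytic flux, was at 2.70 and 2.22 CPM at 0 h and 29.3 and 33.6 CPM at 24 h (log2 fold change 3.67 ± 0.093, adjusted p = 1.2e-33). In each of these genes the libraries of the 2 times were well separated. ANGPTL4, a lipase inhibitor, had 6 counts over both 0 h libraries and rose from 0.0828 and 0.0844 CPM to 2.59 and 1.89 CPM. Requiring at least 10 counts in every library left 26 targets, of which 25 rose, with a median of 1.67. SLC2A1 (GLUT1), the glucose transporter, rose 2.27-fold and EGLN3, a HIF hydroxylase that is itself induced by HIF, 2.92-fold. At the other end, ENO1 and LDHA rose by 0.29 ± 0.027 and 0.26 ± 0.047, and HILPDA, a lipid droplet protein, was at 26.03 and 27.6 CPM at 0 h and 24.996 and 24.2 CPM at 24 h (adjusted p = 0.0581). The core hypoxia response element, searched as ACGTG on both strands, was in 13 of 23 matched promoters of the group, against 26.4% of promoters of tested genes. Promoters of 2 named targets are shown. In LDHA the palindrome CACGTG, which is also the canonical E-box of MYC proteins, holds the motif on both strands.
ANGPTL4, chr19:8363911-8363970, plus strand: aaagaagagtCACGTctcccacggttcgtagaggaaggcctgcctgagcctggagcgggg
LDHA, chr11:18394368-18394497, plus strand: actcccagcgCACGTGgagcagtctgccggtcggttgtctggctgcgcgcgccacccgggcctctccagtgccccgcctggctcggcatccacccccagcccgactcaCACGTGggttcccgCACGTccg

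Of the JmjC demethylases, the family to which the targets of GSK-J4 belong, 9 of 18 rose and 2 fell. KDM6B was at 7.42 and 8.16 CPM at 0 h and 16.1 and 16.6 CPM at 24 h, a 2.09-fold rise (log2 fold change 1.07 ± 0.078, adjusted p = 3.8e-16). KDM6A was at 38.5 and 42.2 CPM at 0 h and 38.1 and 39.5 CPM at 24 h (log2 fold change -0.057 ± 0.049, adjusted p = 0.342). KDM3A, an H3K9 demethylase that is also a HIF target and is counted in both groups, was at 27.3 and 26.3 CPM at 0 h and 110.1 and 121 CPM at 24 h, the largest change of the family (log2 fold change 2.11 ± 0.044, adjusted p = 9.2e-37). The H3K9 and H3K36 demethylases KDM4B, KDM4A and KDM4C rose by 0.98 ± 0.044, 0.65 ± 0.039 and 0.53 ± 0.095 on the log2 scale, and the H3K4 demethylase KDM5B by 0.36 ± 0.035. PHF8 and KDM2B had adjusted p-values of 0.0369 and 0.0485 (-0.13 ± 0.053 and -0.09 ± 0.039), and these calls were lost in 8 and 9 of 13 refits; 0 of the family fell with DESeq2, and 1 without 0 h replicate 1, 0 h replicate 2 or 24 h replicate 1. Of the Polycomb complex PRC2 and its partners, which place the H3K27 mark, 4 of 12 rose and 5 fell. Its accessory subunit PHF19 fell the most, from 63.2 and 64.3 CPM to 37.9 and 37.6 CPM, and PHF1, another accessory subunit, rose by 0.27 ± 0.072.

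Of 10 iron handling genes 6 rose and 3 fell (2 with DESeq2). TFRC, the transferrin receptor for iron uptake, was at 639 and 623 CPM at 0 h and 1777 and 1847 CPM at 24 h, a 2.87-fold rise (log2 fold change 1.52 ± 0.028, adjusted p = 3.3e-39). FTH1, the ferritin heavy chain, rose by 0.25 ± 0.031 on the log2 scale while the light chain FTL fell (-0.31 ± 0.029). HMOX1, heme oxygenase, was at 1.77 and 1.27 CPM at 0 h and 5.96 and 5.89 CPM at 24 h (log2 fold change 1.96 ± 0.14, adjusted p = 2.5e-16). Targets of NRF2, the antioxidant factor, gave 6 higher and 6 lower among 15 tested (median 0.046). NQO1, its standard reporter gene, was at 19.6 and 19.3 CPM at 0 h and 19.6 and 20.6 CPM at 24 h (adjusted p = 0.555), and TXNRD1 fell (-0.14 ± 0.028). NFE2L2, which encodes NRF2, rose by 0.50 ± 0.05, and SLC7A11, counted here too, is a target of ATF4 as well.

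**Figure D3:**
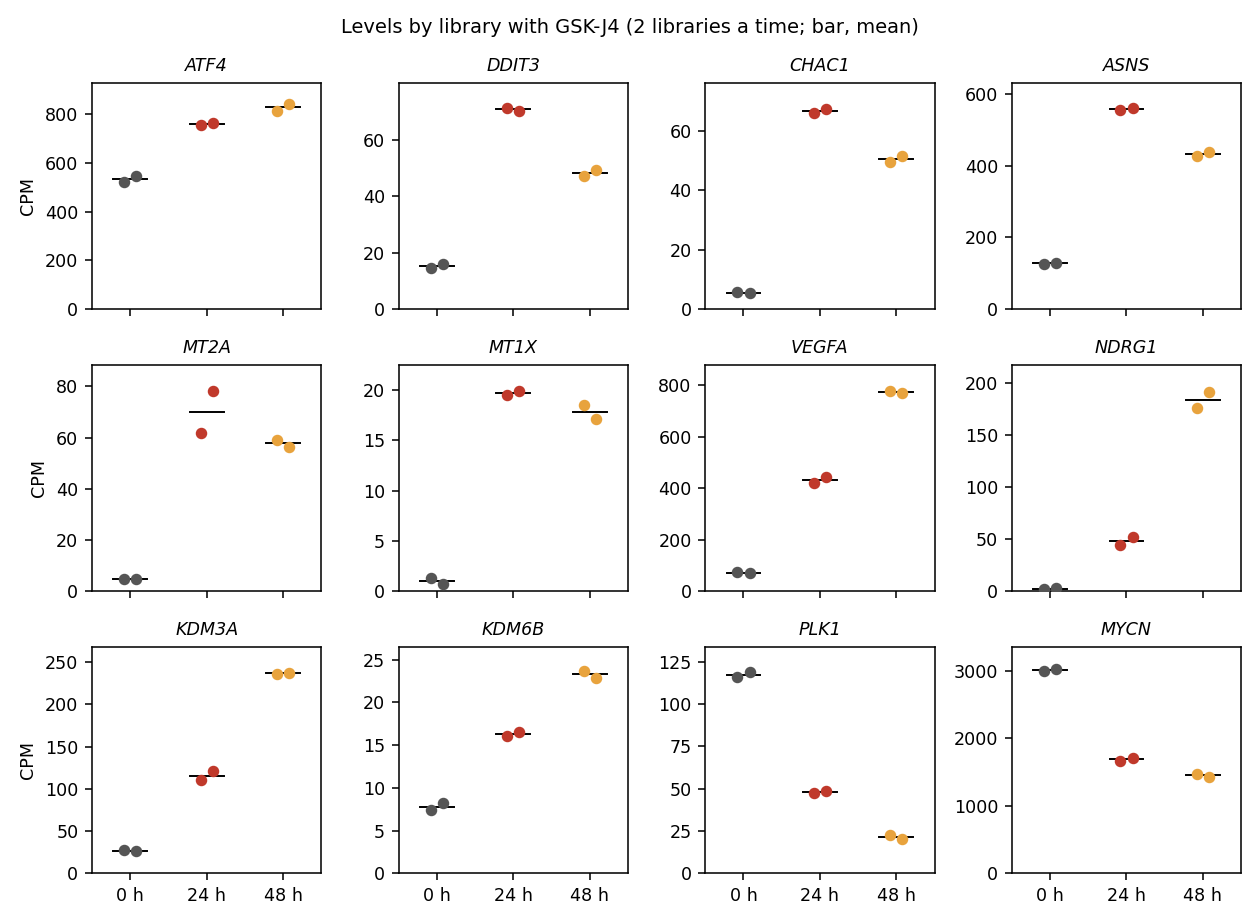
CPM (vertical axis, from 0) of 12 genes in each library at 0 h, 24 h and 48 h of GSK-J4; points are libraries and bars are means of 2. In every panel the 24 h libraries lie apart from the 0 h libraries, above them for the stress, metallothionein, HIF and demethylase genes and below them for PLK1 and MYCN.

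In the cell cycle, mitotic genes fell, while replication genes went in both directions. Of 56 mitotic genes 51 fell and 3 rose, with a median log2 fold change of -0.49. By comparison 28.0% of all genes fell, 38.4% of those at 10 to 100 CPM and 53.8% of those at 100 CPM or more. CENPA, the centromeric histone, was at 38.8 and 39.5 CPM at 0 h and 15.8 and 14.4 CPM at 24 h (log2 fold change -1.37 ± 0.06, adjusted p = 3.5e-24). PLK1, the polo-like kinase of mitotic entry, was at 116 and 119 CPM at 0 h and 47.4 and 48.8 CPM at 24 h (log2 fold change -1.29 ± 0.041, adjusted p = 1.3e-29). PSRC1, a spindle protein, was at 45.8 and 47.2 CPM at 0 h and 18.5 and 19.2 CPM at 24 h (log2 fold change -1.30 ± 0.054, adjusted p = 3.4e-25). All 3 were lower in both 24 h libraries, by 2.46-fold in the case of PSRC1. The exceptions that rose were SKA1, a kinetochore subunit, from 16.5 and 16.4 CPM to 26.7 and 26.1 CPM, the B-Myb gene MYBL2 by 0.15 ± 0.03 and the phosphatase CDC25C by 0.13 ± 0.054, a call lost with DESeq2 and without 0 h replicate 1 (0.090) or 24 h replicate 1 (0.093). Of 43 replication genes 12 rose and 19 fell (median -0.068). The share that rose, 27.9%, was near the 27.3% of all genes and so is no result about the group. The 19 of 43 that fell are to be read against the shares of falling genes given above for the mitotic group. CDT1 and CDC6, which license origins, rose by 0.65 ± 0.041 and 0.24 ± 0.033, as did the polymerase POLE by 0.59 ± 0.032. Within the MCM helicase MCM2 fell (-0.20 ± 0.029) and MCM5 (-0.41 ± 0.032), and POLE2 had the largest fall of the group (-0.61 ± 0.055). DNA repair genes rose in 12 of 24 cases and fell in 2, or in 1 with DESeq2 and without any 1 library (median 0.13), BRCA1 by 0.47 ± 0.031.

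Upstream regulators were mixed. Of 10 E2F and DP genes 2 rose and 4 fell, and E2F1 was at 113 and 108 CPM at 0 h and 104 and 111 CPM at 24 h (adjusted p = 0.365). The repressor E2F7 rose by 0.41 ± 0.051 and E2F4 fell (-0.35 ± 0.042). Cyclin D1 (CCND1) and CDK4, which start the cycle by phosphorylating pRB, fell (-0.20 ± 0.027 and -0.15 ± 0.029), while CDK6 rose by 0.37 ± 0.027. Among CDK inhibitors other than CDKN1A, CDKN1C (p57) rose from 0.221 and 0.113 CPM to 0.569 and 0.660 CPM, CDKN2C (p18) fell (-0.57 ± 0.056), and CDKN1B (p27) was at 85.3 and 78.7 CPM at 0 h and 84.7 and 80.7 CPM at 24 h (adjusted p = 0.829).

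Promoters of the mitotic and replication groups were searched for both motifs of cell cycle genes. The cell cycle genes homology region, searched as TTTGAA on both strands, was in 33 of 50 mitotic and 2 of 38 replication promoters, against 9.92% of promoters of tested genes. E2F sites, searched as TTTCGCGC, TTTGGCGC or TTTCCCGC, were in 20 of 38 replication promoters and 3 of 50 mitotic ones, against 4.44%. Both motifs occurred in the promoters of CDK1, CENPA and NUSAP1. Promoters of CENPA and PLK1, described above, are shown with that homology region in capitals.
CENPA, chr2:26785996-26786055, plus strand: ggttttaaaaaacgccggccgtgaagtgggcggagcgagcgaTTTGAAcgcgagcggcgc
PLK1, chr16:23678829-23678888, plus strand: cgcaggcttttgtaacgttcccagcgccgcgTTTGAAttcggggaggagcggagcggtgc

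**Figure D4:**
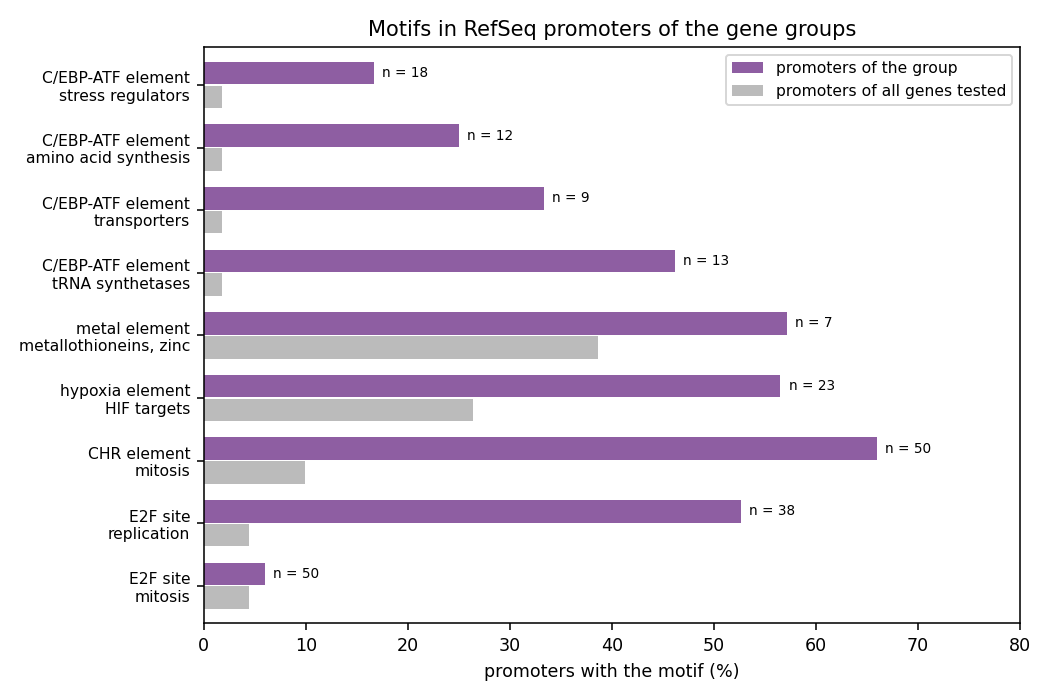
Bars give the percent of RefSeq promoters with the motif named at the left, purple for the gene group (n, promoters matched) and grey for all 11436 promoters of tested genes. The homology region (CHR) is in 66.0% of mitotic promoters and E2F sites in 52.6% of replication promoters.

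Replication-dependent histone genes, whose transcripts are made in S phase, had a lower median than either group. Of 69 tested 58 fell and 0 rose (median -0.86; also 0 at an unadjusted p under 0.05, with DESeq2 and with limma-voom). HIST1H1D, a linker histone, was at 432 and 440.2 CPM at 0 h and 113 and 110.2 CPM at 24 h (log2 fold change -1.96 ± 0.031, adjusted p = 2.0e-41). HIST1H3J, an H3 gene, was at 149 and 152 CPM at 0 h and 36.4 and 38.9 CPM at 24 h (log2 fold change -1.996 ± 0.04, adjusted p = 9.9e-38). HIST2H2BF, an H2B gene, was at 221 and 232 CPM at 0 h and 54.2 and 57.8 CPM at 24 h (log2 fold change -2.02 ± 0.038, adjusted p = 8.2e-39). The fall spanned all classes, with medians of -0.92 for H1, -0.83 for H2A, -0.99 for H2B, -0.94 for H3 and -0.75 for H4. In the main cluster at chr6:26020679-27861669 (GRCh37) 41 of 44 tested genes fell. Near-identical copies make the division of reads among histone genes uncertain.

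MYCN was at 3004 and 3027 CPM at 0 h and 1669 and 1717 CPM at 24 h, a 1.78-fold fall (log2 fold change -0.83 ± 0.026, adjusted p = 1.0e-29). It lies at chr2:16080672-16087129 (GRCh37), and its neighbours on chromosome 2 were examined as well. Of 6 tested genes of this locus, MYCN included, 5 fell and 1 rose, by 1.13 on the log2 scale. With DESeq2 or with at least 10 counts in every library 0 rose. MYCNOS, the antisense RNA, fell (-0.75 ± 0.043); it overlaps MYCN, and the sources used here do not state strand-specific counting, so reads of the overlap cannot be assigned. GACAT3, a long non-coding RNA downstream, was at 8.97 and 7.29 CPM at 0 h and 2.76 and 3.38 CPM at 24 h (log2 fold change -1.40 ± 0.13, adjusted p = 2.8e-13). DDX1, a helicase gene often co-amplified with MYCN, fell (-0.31 ± 0.028). In the MAX network of MYC proteins and their antagonists, MYC rose from 0.304 and 0.197 CPM to 1.62 and 1.40 CPM (log2 fold change 2.58 ± 0.33, adjusted p = 5.9e-09). MXD1 rose by 0.86 ± 0.073 and MXD4 by 0.39 ± 0.041, while MXD3 fell (-0.84 ± 0.083) and MAX (-0.15 ± 0.045).

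Ribosome biogenesis is a process that MYC proteins sustain. Of 27 genes 19 fell and 1 rose, or 2 with upper-quartile scaling (median -0.29). UTP20, NOP16 and MYBBP1A, nucleolar factors, fell the most (-0.73 ± 0.032, -0.71 ± 0.039 and -0.70 ± 0.041). NPM1, nucleophosmin, was at 4271 and 4355 CPM at 0 h and 4276 and 4185 CPM at 24 h (adjusted p = 0.387). The E-box CACGTG was in 9 of 23 promoters of the group, against 9.98% of promoters of tested genes. Ribosomal protein genes went the other way, with 47 of 84 higher and 9 lower, but by little (median 0.10). The count depended on the processing, with 41 higher under DESeq2 and 61 under upper-quartile scaling (medians 0.091 and 0.15). RPL39L had the largest of the called increases (0.29 ± 0.064), and RPL26L1 the largest fall (-0.53 ± 0.047). In polyamine metabolism SRM, spermidine synthase, fell (-0.67 ± 0.046), ODC1, ornithine decarboxylase and a MYC target, rose by 0.35 ± 0.027, and SMOX, spermine oxidase, rose from 1.46 and 1.77 CPM to 5.88 and 6.17 CPM.

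Adrenergic transcription factors fell modestly. Of 20 tested 15 fell and 1 rose (median -0.27). LMO3, a cofactor of neuroblastoma, was at 32.8 and 31.6 CPM at 0 h and 13.004 and 12.9 CPM at 24 h (log2 fold change -1.31 ± 0.062, adjusted p = 7.2e-23). TFAP2B, a sympathetic lineage factor, was at 81.6 and 84.6 CPM at 0 h and 39.8 and 38.9 CPM at 24 h (log2 fold change -1.08 ± 0.042, adjusted p = 4.3e-26). The core factors HAND2 and GATA3 fell (-0.34 ± 0.028 and -0.25 ± 0.039). Of 16 genes of catecholamine synthesis, storage and uptake 6 rose and 9 fell. TH, tyrosine hydroxylase, was at 31.6 and 33.1 CPM at 0 h and 49.7 and 49.9 CPM at 24 h (log2 fold change 0.62 ± 0.047, adjusted p = 1.4e-15), and DDC and DBH rose by 0.41 ± 0.03 and 0.42 ± 0.032. SLC18A2 (VMAT2), the vesicular transporter, and MAOA, which degrades catecholamines, fell (-0.96 ± 0.097 and -0.95 ± 0.078).

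Neuronal genes fell in 13 of 22 cases and rose in 6. The share that rose, 27.3%, was that of all genes and so is no result about the group. Of all genes 28.0% fell, and of those at 100 CPM or more 53.8%. NEFH, the heavy neurofilament, was at 112 and 115 CPM at 0 h and 48.8 and 48.3 CPM at 24 h (log2 fold change -1.22 ± 0.039, adjusted p = 9.8e-30). GAP43, a growth cone protein, was at 208 and 212 CPM at 0 h and 109 and 107 CPM at 24 h. MAPT, PRPH and NCAM1, markers of neurons, rose by 0.34 ± 0.067, 0.22 ± 0.028 and 0.24 ± 0.029. Mesenchymal genes were mixed, with 5 of 18 higher (3 with at least 10 counts in every library) and 9 lower. VIM, vimentin, was at 170.4 and 176 CPM at 0 h and 319.9 and 333 CPM at 24 h (log2 fold change 0.91 ± 0.03, adjusted p = 5.6e-29). CD44 fell from 3.70 and 4.36 CPM to 1.54 and 1.87 CPM, S100A6 and FN1 fell (-1.14 ± 0.054 and -0.31 ± 0.059), and the fibroblast marker sum given above was lower at 24 h as well; its part in these changes was not tested. Of the neurotrophin and growth factor receptors, NGFR (p75) rose from 0.828 and 0.788 CPM to 2.66 and 2.87 CPM, RET rose by 0.50 ± 0.03, ALK fell (-0.27 ± 0.047), and GFRA3, an artemin receptor, fell from 4.03 and 3.55 CPM to 0.948 and 0.830 CPM.

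Of 15 tested Bcl-2 family and death receptor genes 7 rose and 3 fell (median 0.21). HRK, a BH3-only protein of neurons, was at 3.81 and 2.87 CPM at 0 h and 24.9 and 27.2 CPM at 24 h, a 7.78-fold rise (log2 fold change 2.96 ± 0.094, adjusted p = 1.0e-29). BBC3 (PUMA) was at 4.91 and 4.22 CPM at 0 h and 10.6 and 10.002 CPM at 24 h (log2 fold change 1.18 ± 0.1, adjusted p = 1.8e-13). PMAIP1 (NOXA) was at 20.7 and 18.8 CPM at 0 h and 45.7 and 42.2 CPM at 24 h (log2 fold change 1.15 ± 0.056, adjusted p = 1.5e-22). TNFRSF10B, the death receptor DR5 and a target of both CHOP and p53, rose from 5.02 and 5.88 CPM to 34.6 and 33.8 CPM. The effector BAX fell (-0.50 ± 0.056), and BCL2L11 (BIM) had an adjusted p of 0.424. These BH3-only genes are shared by several pathways, and p53 targets as a whole gave 8 higher and 5 lower among 20 (median 0.12): FAS rose from 0.386 and 0.310 CPM to 1.90 and 1.43 CPM, whereas MDM2 fell (-0.17 ± 0.032), DDB2 (-0.77 ± 0.13) and SPATA18 from 6.54 and 6.53 CPM to 1.62 and 1.51 CPM.

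Immediate early genes rose in 18 of 25 cases and fell in 2, or in 1 with upper-quartile scaling and without 0 h replicate 2. FOS, a subunit of AP-1, was at 0.800 and 0.619 CPM at 0 h and 4.15 and 4.68 CPM at 24 h. FOSB, another AP-1 subunit, was at 0.0828 and 0.197 CPM at 0 h and 1.18 and 1.06 CPM at 24 h, EGR1 at 1.24 and 1.35 CPM at 0 h and 3.50 and 3.43 CPM at 24 h and JUN at 28.6 and 29.1 CPM at 0 h and 42.9 and 43.7 CPM at 24 h. For all 4 the lowest 24 h value exceeded the highest 0 h value. In lipid metabolism the cholesterol pathway had small changes (11 of 22 higher, 4 lower, median 0.12), with HMGCS1 at 276 and 267 CPM at 0 h and 390.5 and 381 CPM at 24 h. Fatty acid genes fell in 10 of 15 cases and rose in 2, or in 4 with upper-quartile scaling and 1 without 24 h replicate 2. PLIN2, a lipid droplet coat protein, was at 19.5 and 19.3 CPM at 0 h and 4.40 and 4.66 CPM at 24 h (log2 fold change -2.10 ± 0.089, adjusted p = 8.8e-25). SREBF1, the lipogenic factor, fell from 26.6 and 30.001 CPM to 11.1 and 10.4 CPM, and ACSS2, the acetyl-CoA synthetase, rose from 8.09 and 7.94 CPM to 18.3 and 18.6 CPM. In AKT and mTOR signalling 7 of 14 genes rose and 5 fell. DEPTOR, an inhibitor of mTOR, rose from 11.9 and 12.3 CPM to 28.3 and 31.2 CPM, FOXO3 rose by 0.67 ± 0.039, and IRS1 fell (-0.71 ± 0.079). Of the autophagy and lysosome genes, MAP1LC3B (LC3B) was at 40.7 and 39.9 CPM at 0 h and 89.8 and 87.3 CPM at 24 h (log2 fold change 1.14 ± 0.04, adjusted p = 6.9e-28), while LAMP1, CTSD and SQSTM1 (p62) fell (-0.45 ± 0.033, -0.45 ± 0.078 and -0.24 ± 0.038); 6 of 17 rose and 7 fell.

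The 48 h libraries, compared with the same 0 h libraries, are given side by side without a test between the times. Median log2 fold changes of the stress regulators were 2.22 at 24 h and 2.20 at 48 h, and metallothionein and zinc genes 4.27 and 4.13. Amino acid synthesis genes had 0.90 and 0.32, with ASNS at 554 and 561 CPM at 24 h and 427 and 437 CPM at 48 h. HIF targets had 1.68 and 2.73, with VEGFA at 779 and 771 CPM at 48 h. Mitotic genes had -0.49 and -1.04, replication genes -0.068 and -0.35, histones -0.86 and -1.996, and cholesterol genes 0.12 and -0.77. Over all tested genes the median was 0.014 and 0.055. KDM6B was at 23.7 and 22.8 CPM and MYCN at 1467 and 1433 CPM at 48 h.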

How the data were processed

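Total RNA was sequenced as paired ends. The authors aligned reads to GRCh37 (STAR 2.5.3a and HTSeq per the labels) and deposited read pair counts per gene symbol, without normalization; htseq-count summary lines were left out. Files sharing a replicate number were summed, because their counts differed by 1.48 to 1.65 times sampling noise against 1.89 to 3.01 times between replicates. The quasi-likelihood F test of edgeR 4.0.16 (R 4.3.3), with the filterByExpr filter, TMM factors and Benjamini-Hochberg adjustment (threshold 0.05), was run on 6 libraries (0 h, 24 h, 48 h), the contrast being 24 h minus 0 h; 17734 of 50652 listed genes passed the filter. Bounds for genes with 0 counts at 0 h used 3 counts per library, and ratios on few counts an exact binomial interval. The pipeline was tested on simulated data. The gene lists, motifs and comparison were chosen with earlier results of these data known. Named genes are the 12 highest and 12 lowest log2 fold changes among genes that passed, with a mean of at least 1 CPM and no overlap between times, and in each list the key genes, the 3 highest and 3 lowest, or any member of lists of 20 genes or fewer; PDGFRB was named as a marker, and CDK1 and NUSAP1, outside this rule, for promoter motifs after their values were seen. Gene positions are from GENCODE v44lift37 (GRCh37), where 14130 symbols matched directly and 764 through an older symbol. Promoters are from RefSeq. Alternatives were DESeq2 1.42.0, limma-voom (limma 3.58.1), other scalings and filters, each file as a sample, a replicate block and leaving out each library. Python 3.11.15, pandas 2.3.3, numpy 2.4.6, scipy 1.17.1 and matplotlib 3.10.9 were used. Data of the other 26 samples were not used here, and some genes are not reported here.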

Additional observations from a re-analysis of the deposited data

How the results depend on the processing

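Calls at 24 h numbered 9802, 4833 higher and 4969 lower. Requiring an absolute log2 fold change above 0.5 left 3855 genes, 2239 higher and 1616 lower. The other alternatives moved the count by less: DESeq2 called 8061 genes, limma-voom 9667, and filters, scalings and single-file samples 9106 to 9882. Leaving out 1 library at a time gave 8602 to 8831 calls, 4205 to 4342 higher and 4397 to 4489 lower. In those fits the lone library of a time was assumed to vary like the others. Over genes, the deviations of same-numbered libraries were nearly uncorrelated (r of 0.018 between 0 h and 24 h). Because counting noise lowers this r, it cannot decide whether the numbers mark a shared culture. With a replicate block 9939 genes were called. Upper-quartile scaling raised the median of all genes from 0.014 to 0.062 on the log2 scale, and higher calls to 5550 against 4329 lower.

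Over all 13 refits the regulators of the stress response had 15 to 18 higher and 0 lower, HIF targets 25 to 27 higher and 0 to 1 lower, mitotic genes 50 to 51 lower, histones 56 to 59 lower and replication genes 9 to 14 higher and 15 to 19 lower. The metallothionein and zinc group fell to 5 tested genes, 3 higher, with a median of 2.07 when at least 10 counts were required in every library, because that filter removes genes with fewer than 10 counts in a 0 h library. Of the 217 genes named, 202 kept direction and call throughout, 3 lost their call in some refit (CDC25C, KDM2B and PHF8) and 2 gained one (HILPDA and SHMT1). Signs changed for 11 genes, of which 0 had been called. Under upper-quartile scaling the log2 fold change was 0.0075 for E2F1, 0.012 for MTF1, 0.020 for NPM1 and 0.020 for PYCR1, and with DESeq2 it was -0.0012 for CDKN1B. Without single libraries it ranged from -0.027 to 0.18 for BCL2L11, -0.043 to 0.073 for CDKN1B, -0.090 to 0.014 for E2F1, -0.0044 to 0.069 for EIF2AK3, -0.15 to 0.0015 for HES1, -0.12 to 0.013 for KDM6A, -0.11 to 0.041 for MTF1, -0.051 to 0.19 for SHMT1 and -0.17 to 0.026 for SLC43A1. The cause of these changes was not tested.

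Depth limits the lowest genes: the median SE was 0.47 below 1 CPM and 0.031 at 100 CPM or more. The values describe 2 libraries a time of a single cell line, without an untreated control at 24 h.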

Other observations

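Several further gene groups held single genes with strong changes. Among 7 tested retinoid genes 4 rose and 1 fell, and with at least 10 counts in every library 2 rose. DHRS3, a retinaldehyde reductase induced by retinoic acid, had 1 count over both 0 h libraries and was at 0.991 and 1.02 CPM at 24 h. CYP26B1, which degrades retinoic acid, was at 0 and 0.0563 CPM at 0 h and 0.485 and 0.873 CPM at 24 h. Among imprinted and oncofetal genes, IGF2, a fetal growth factor, was at 175 and 175 CPM at 0 h and 422 and 451 CPM at 24 h (log2 fold change 1.32 ± 0.031, adjusted p = 1.5e-34) and H19, its non-coding neighbour, at 0.442 and 0.338 CPM at 0 h and 2.36 and 2.17 CPM at 24 h (log2 fold change 2.53 ± 0.26, adjusted p = 9.1e-12). LIN28B, a repressor of let-7 microRNAs, was at 338 and 315 CPM at 0 h and 250.1 and 251 CPM at 24 h (log2 fold change -0.38 ± 0.031, adjusted p = 6.7e-15), and 4 of the 6 tested genes of that group fell.

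Interferon and antigen presentation genes rose in 7 of 21 cases and fell in 6, or in 3 with upper-quartile scaling or library totals. IRF1 was at 2.70 and 2.70 CPM at 0 h and 12.6 and 13.2 CPM at 24 h (log2 fold change 2.26 ± 0.11, adjusted p = 4.8e-23) and HLA-E, a ligand of natural killer receptors, at 0.359 and 0.591 CPM at 0 h and 1.18 and 1.43 CPM at 24 h (log2 fold change 1.45 ± 0.29, adjusted p = 2.6e-05). Of TGF-β and BMP targets 6 of 9 rose and 1 fell, or 0 in 10 of 13 refits, those without 0 h replicate 1, 24 h replicate 1 or 24 h replicate 2 included, with ID4 at 6.24 and 4.87 CPM at 0 h and 10.7 and 10.8 CPM at 24 h and ID1 at 41.8 and 45.8 CPM at 0 h and 70.1 and 73.6 CPM at 24 h. WNT targets fell in 5 of 9 cases and rose in 1, with DKK1, a secreted WNT antagonist, at 21.2 and 21.6 CPM at 0 h and 8.58 and 7.75 CPM at 24 h (log2 fold change -1.39 ± 0.078, adjusted p = 2.8e-20). Among 9 NOTCH genes 3 rose and 1 fell (0 with DESeq2 and without 0 h replicate 1 or 24 h replicate 2), HEY1 rising by 0.64 ± 0.05, and HES1 was at 2.79 and 2.70 CPM at 0 h and 2.47 and 2.75 CPM at 24 h (adjusted p = 0.704). Of 39 HOX genes, classical targets of Polycomb, only 15 passed the filter on low counts, so the rest were not tested. By edgeR 9 of the 15 fell, or 8 with DESeq2, against 28.0% of all genes. The number falling varied over the refits, with medians of -0.51 to -0.38. In the main fit the median was -0.44 and 0 rose. The 0 held at an unadjusted p under 0.05, with DESeq2 and with limma-voom. HOXD13 was at 11.01 and 10.6 CPM at 0 h and 4.87 and 5.001 CPM at 24 h (log2 fold change -1.13 ± 0.1, adjusted p = 2.8e-13). Clustered protocadherins, which are also held under H3K27 methylation in many cells, rose in 2 of 53 cases and fell in 13 (median -0.023, or 0.025 with upper-quartile scaling). Without 0 h replicate 2 the numbers were 1 and 7, without 24 h replicate 2 they were 5 and 11, and without 24 h replicate 1 they were 1 and 10.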
